A study of Mus musculus with 6 samples.

Results

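Translation initiation factors (eIFs) and translation elongation factors (eEFs) were followed in MN9D cells that overexpressed Lmx1a. The members were the array probes whose gene symbol begins with Eif1 to Eif6, Eef1 or Eef2, pseudogenes left out. They came to 80 probes for 62 genes, of 31769 probes and 17865 named genes on the array. In 12 genes there was more than 1 probe, and the brightest probe then stood for the gene. The list of genes was set by names, without a measured value, while brightness chose the probe of those 12. MN9D is a mouse line made by fusing embryonic midbrain cells with neuroblastoma cells, and Lmx1a is a transcription factor that helps specify dopamine neurons of the midbrain.

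The Lmx1a group was transiently transfected with pcDNA3.1(-)-Lmx1a, which holds the mouse coding sequence. The control group received the empty pcDNA3.1(-) in equimolar amount. Both groups also received pBluescript SKII(+) as carrier, and no selection of transfected cells is described. Each of 3 Lmx1a RNA pools came from 3 dishes, and the control was 1 pool from 9 dishes. Every Lmx1a pool was hybridised against that control pool on 2 arrays with the dyes swapped, giving 6 arrays and n = 3 pools. All values below are log2 ratios of Lmx1a over control, averaged over the 2 arrays of a pool, and errors are SDs between pools. A log2 ratio compares the 2 RNAs on 1 spot, and brightness does not rank 1 gene's mRNA against another's. The control pool is 1 sample, so its own spread does not enter the tests, and whether each pool had its own transfection is not stated in the labels.

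Protein synthesis begins when eIF2 brings the initiator tRNA to the small ribosomal subunit. The eIF4F complex (the cap-binding protein eIF4E, the scaffold eIF4G and the helicase eIF4A) loads that subunit, held by eIF3, on the mRNA. After the start codon is found, eIF5 and eIF5B let the large subunit join. eEF1A then delivers aminoacyl-tRNAs and eEF2 moves the ribosome along. Much of this control acts on the proteins, through phosphorylation of eIF2, of eEF2 and of the eIF4E-binding proteins, which an mRNA array does not read.

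No translation factor gene differed between Lmx1a-transfected and control cells past the threshold, an adjusted p of 0.05. In limma's fit of the 3 pools 0 of 80 member probes were called, beside 0 of 31769 probes (0%) on the whole array. The lowest adjusted p of a member was 0.200, for Eif2s3x, and the lowest of any probe was 0.0779. That fit did not call the transfected gene either: Lmx1a, at a log2 ratio of 2.49, had a limma adjusted p of 0.0779. An absence of calls in this fit thus does not show an absence of change. At an unadjusted p under 0.05, 9 member genes were above 0 and 2 below, or 5 and 2 without replicate 1. These came to 12 and 2 probes, 15% and 2.5%, against 6.23% and 5.56% of all probes. In the fit of the 6 arrays with a replicate block, 0 member probes were called, against 333 probes on the array (1.05%). A lower ratio through fewer cells of a kind and through less RNA per cell cannot be told apart in such bulk RNA.

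The ratios were small. Over the 62 genes they ran from -0.086 (Eef2) to 0.13 (Eef1a1), and no member passed 1.1-fold, against 1.51% of all probes. The 95% confidence interval of limma lay within 1.2-fold of no change, in both directions, for 80 of 80 member probes and for 99.2% of all probes. With plain background subtraction it did so for 62 of 80, and with detected probes only for 70 of 70. The 80 include dim probes whose ratio depends on the background correction. Eif5a2, at -0.0044 here, was at -1.24 with plain background subtraction. The narrow interval of such a probe does not show an unchanged mRNA. The median of the member genes was 0.0045, with pool medians of -0.0023, 0.016 and 0.0042, beside 0.00093 over all named genes and 0.0032 over detected named genes. Positive means were found for 35 of 62 genes (56.5%), beside 51.5% of all named genes and 53.4% of detected named genes. The count was 22 of 62 when arrays were centred on their median in place of loess, where the median of all probes was -0.0186. Of the 62, 11 were positive in all 3 pools and 5 negative in all 3, which holds for 16.7% and 15.8% of all probes. Eif4a1 and Eif5b were the member genes positive on 6 of 6 arrays, with 4 member probes in all (2.66% of all probes). No member was negative on all 6 arrays (2.61% of all probes).

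**Figure D1:**
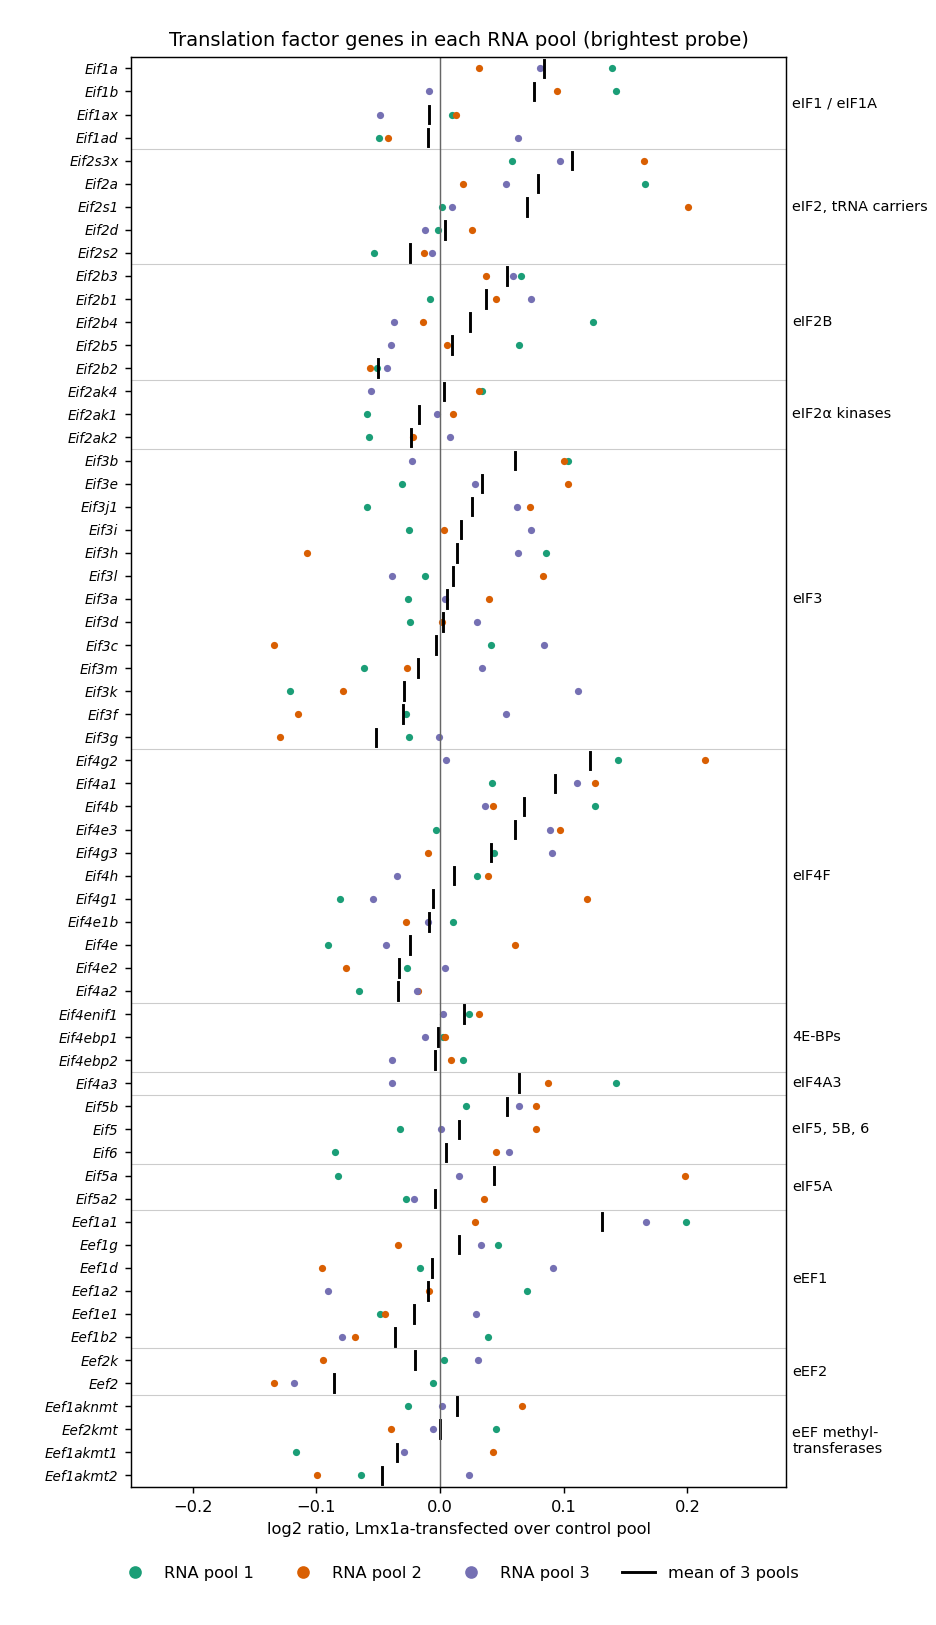
Log2 ratio of Lmx1a over control for the brightest probe of the 62 translation factor genes, grouped by role, with 1 point for each of the 3 RNA pools and a bar for their mean. The means lie between -0.086 and 0.13, and the points of most genes fall on both sides of 0.

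Genes named after eIF1 and eIF1A, the factors that act in scanning for the start codon, numbered 4, with 2 positive and 2 negative means. Eif1a, encoding eIF1A, which holds the scanning complex open, gave 0.14, 0.032 and 0.081 in pools 1 to 3, a mean of 0.084 ± 0.054 (SD, n = 3). Its limma adjusted p was 0.277. The average was 0.17 with Lmx1a RNA in Cy5 and -0.0025 with Lmx1a RNA in Cy3, a dye difference that did not pass (limma adjusted p 0.125). Eif1b, a close relative of eIF1, gave 0.14, 0.095 and -0.0086, a mean of 0.076 ± 0.077. Eif1ax and Eif1ad lay at -0.0089 and -0.0095. Eif1 itself is not analysed here.

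Among the genes for eIF2 and other carriers of the initiator tRNA, 4 of 5 means were positive. Eif2s3x, the X-linked gene for the gamma subunit that binds GTP and the tRNA, gave 0.058, 0.16 and 0.097, a mean of 0.11 ± 0.054 (SD, n = 3). It was positive in every pool and in both dye orientations (0.12 where Lmx1a was in Cy5, 0.097 where it was in Cy3), though 1 of its 6 arrays was negative. The other 2 Eif2s3x probes had means of 0.034 and 0.052, also positive in every pool. Eif2s1, for the alpha subunit whose phosphorylation halts initiation, gave 0.0012, 0.20 and 0.0096. Its mean of 0.070 ± 0.11 therefore rested on pool 2, and its probe was above background on 5 of 6 arrays. Eif2s2, the beta subunit, was at -0.024 ± 0.026. Eif2a, which despite its symbol encodes a separate tRNA carrier and no eIF2 subunit, was at 0.079 ± 0.077, with 0.17, 0.019 and 0.053. Its highest array value, 0.22, came from the pool 1 array with Lmx1a in Cy3. The signals above background there were 1049 and 2098, against 356 and 164 on the other pool 1 array. Without replicate 1 the Eif2a mean was 0.036.

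All 5 subunit genes of eIF2B, the factor that recharges eIF2 with GTP, were measured, and 4 means were positive. Eif2b3 (gamma subunit) gave 0.066, 0.037 and 0.059, a mean of 0.054 ± 0.015 with a limma adjusted p of 0.297. Eif2b2 (beta subunit) gave -0.051, -0.056 and -0.043, a mean of -0.050 ± 0.0069 with a limma adjusted p of 0.312. These pool values are close together and the subunits lie on opposite sides of 0. Their orientation means lay apart, though neither dye difference passed (limma adjusted p 0.219 for Eif2b3 and 0.0545 for Eif2b2). Eif2b3 averaged 0.11 on arrays with Lmx1a in Cy5, against -0.0062 where Lmx1a was in Cy3. For Eif2b2 the same averages were 0.027 and -0.13.

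The 3 measured kinases that phosphorylate eIF2 alpha lay between -0.024 and 0.0034. Eif2ak2, the double-stranded RNA sensor PKR, had the largest value in size, with -0.058, -0.022 and 0.0079 and a mean of -0.024 ± 0.033. Eif2ak4 encodes the amino acid sensor GCN2 and Eif2ak1 the heme-regulated kinase, which was above background on 4 of 6 arrays. Eif2ak3, for the endoplasmic reticulum kinase PERK, is not analysed here.

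The scaffold eIF3 was covered by 13 subunit genes, 8 with positive and 5 with negative means, a median of 0.0058 and none at an unadjusted p under 0.05. Eif3b, a core subunit, gave 0.10, 0.10 and -0.022, a mean of 0.060 ± 0.072. Eif3g, an RNA-binding subunit, gave -0.026, -0.13 and -0.0012, a mean of -0.052 ± 0.068. Values of a single pool were often larger than the mean: Eif3c ran from -0.13 in pool 2 to 0.084 in pool 3, and Eif3k from -0.12 in pool 1 to 0.11 in pool 3. Subunits of this 1 complex thus did not share a sign within a pool, with pool medians of -0.025, 0.0013 and 0.034.

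The cap-binding and helicase group had 11 genes, 6 positive and 5 negative, with 3 above 0 at an unadjusted p under 0.05 and none below. Of all detected probes 12% lay above 0 by that measure, and 19.4% did in the brightest of 10 equal bins of probes ranked by brightness. Eif4a1, the main eIF4A helicase, gave 0.063, 0.13 and 0.070 on the arrays of pools 1 to 3 with Lmx1a in Cy5. On those with Lmx1a in Cy3 it gave 0.020, 0.12 and 0.15. All 6 values were positive, with a mean of 0.093 ± 0.045 (SD, n = 3) and a limma adjusted p of 0.213. With the replicate block the adjusted p was 0.0987. The size of this value depended on the normalization: it was 0.0015 with median centring and 0.044 with loess within print grids.

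Eif4a2, the paralogous helicase, gave different answers on its 2 probes. The brighter one was at -0.066, -0.018 and -0.018 (mean -0.034 ± 0.028), and the dimmer one at 0.046, 0.085 and 0.087 (mean 0.073 ± 0.023), positive on 6 of 6 arrays. The second had the lowest replicate-block adjusted p of all member probes, 0.0916. Both probes were above background on every array, so no single direction can be given for this gene. Whether these probes also bind the similar Eif4a1 mRNA was not tested, since probe sequences were not used here. Eif4g3 was likewise split, with 0.041 on its brightest probe and -0.058 on the next, both above background on every array. Its dimmer probes, at -0.033, -0.0068 and 0.0029, were above background on 4, 5 and 0 of 6 arrays and add little.

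Eif4g2 (DAP5), a scaffold that lacks the eIF4E-binding site, had the second-highest mean of all members. Its arrays with Lmx1a in Cy5 gave -0.024, 0.067 and -0.19, and those with Lmx1a in Cy3 gave 0.31, 0.36 and 0.20. The orientations did not overlap, and the mean of 0.12 ± 0.11 (limma adjusted p 0.332) averages -0.047 from the Cy5 orientation and 0.29 from the other. Eif4g1, the main scaffold, was at -0.0057 ± 0.11. Eif4e, the cap-binding protein itself, gave -0.091, 0.061 and -0.044, a mean of -0.025 ± 0.078. Eif4e2, a cap-binding relative linked to repression, was at -0.033 ± 0.040, and Eif4b, which stimulates the helicase, at 0.068 ± 0.050.

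Genes for proteins that hold eIF4E back from eIF4G lay close to 0. Eif4ebp1 gave 0.0023, 0.0043 and -0.012, but its probe was above background on 1 of 6 arrays. Eif4ebp2, the form best known from neurons, was at -0.0038 ± 0.031. Eif4enif1, the eIF4E transporter, was at 0.019 ± 0.015 on its brighter probe and -0.023 ± 0.025 on the other. Eif4a3, an eIF4A relative that works in the exon junction complex and not in initiation, was at 0.064 ± 0.093.

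All 3 genes that act around subunit joining had positive means. Eif5b, the GTPase that joins the subunits, gave 0.021, 0.078 and 0.063, a mean of 0.054 ± 0.030 (limma adjusted p 0.357), and all 6 of its arrays were positive. Eif5, the activator of eIF2's GTPase, was at 0.015 ± 0.056 on its brightest probe, and at 0.068 and 0.020 on the others. Eif6, which keeps large subunits from pairing too early, was at 0.0051 ± 0.078. Eif5a, the hypusine-bearing factor that helps ribosomes past difficult peptide bonds, gave -0.082, 0.20 and 0.016. Its mean of 0.044 ± 0.14 had the largest SD of all members. The high pool 2 gave 0.18 and 0.22 on its 2 arrays, and the low pool 1 gave -0.14 and -0.024. The value of -0.024 came from a dim spot, with signals above background of 291 and 626. On the pool 2 array of that orientation they were 8508.5 and 17705.8. The low value of pool 1 thus rested mainly on 1 array. The paralogue Eif5a2 was not above background on any array, nor was the cap-binding gene Eif4e1b.

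The elongation genes held both ends of the range. Eef1a1, which encodes the tRNA-delivering eEF1A1 and had the brightest probe among the members, gave 0.34, 0.22 and 0.14 with Lmx1a in Cy5. With Lmx1a in Cy3 it gave 0.061, -0.16 and 0.20. The pool means were 0.20, 0.028 and 0.17, a mean of 0.13 ± 0.091 (SD, n = 3), with a limma adjusted p of 0.252. Median centring moved that mean to -0.0040. Eef1a2, the form used by mature neurons and muscle, was at -0.0096 ± 0.081, negative on 3 of 3 arrays with Lmx1a in Cy5 and positive on 2 of 3 with Lmx1a in Cy3. Of the exchange factor subunits that reload eEF1A, Eef1b2 was at -0.036 ± 0.065, Eef1d at -0.0065 ± 0.094 and Eef1g at 0.015 ± 0.043. Eef1e1, a component of the tRNA synthetase complex despite its symbol, was at -0.021 ± 0.044.

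Eef2, the translocation GTPase, had the lowest mean of all members, -0.086 ± 0.070, with -0.0060, -0.13 and -0.12 in the pools and a limma adjusted p of 0.337. Its arrays with Lmx1a in Cy5 gave -0.14, -0.34 and -0.19, and those with Lmx1a in Cy3 gave 0.13, 0.075 and -0.048. The orientations did not overlap, and their means had opposite signs (-0.22 and 0.052). Eef2k, the kinase that inhibits eEF2, was at -0.020 ± 0.066. Of 4 measured methyltransferases that modify eEF1A or eEF2, 2 had positive and 2 negative means, with Eef1akmt2 lowest at -0.047 ± 0.063.

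Several elongation and eIF3 genes, like the genes for ribosomal proteins, are known for mRNAs that start with a 5′ terminal oligopyrimidine (TOP) tract, a run of C and T in the DNA through which mTOR controls their translation. The start windows of 6 members are shown to set genes at both ends of the range, and genes known as TOP mRNAs, beside their ratios. Each has 15 bases before and 15 from the start of the gene annotated in RefSeq (GRCm38.p6), on the gene's strand, with runs of at least 8 C or T in capitals.
Eef1a1 (chr9:78481710-78481739, minus strand): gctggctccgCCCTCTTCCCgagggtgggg
Eif2s3x (chrX:94212637-94212666, minus strand): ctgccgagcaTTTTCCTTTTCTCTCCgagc
Eif3f (chr7:108934400-108934429, plus strand): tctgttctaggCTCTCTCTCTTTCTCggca
Eif4a1 (chr11:69672409-69672438, minus strand): acaaagtaacgtcacgtcgagttgcagagc
Eef1b2 (chr1:63176816-63176845, plus strand): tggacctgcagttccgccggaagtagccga
Eef2 (chr10:81176616-81176645, plus strand): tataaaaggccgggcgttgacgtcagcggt
Eef1a1, Eif2s3x and Eif3f hold such a run across the annotated start, and Eif4a1, Eef1b2 and Eef2 hold none in this window. Of 49 members with an entry, 11 (22.45%) held a run, against 13.91% of 27025 genes in the table, searched on the gene's strand only. A run counted anywhere in the window, also where it lay wholly before the start, as in Eef1a2. These shares therefore do not measure TOP tracts. Whether the mRNAs begin at the annotated starts in these cells was not tested, so a window without a run does not show that a tract is missing. Of those 11 members 6 had a positive mean, so genes with a run stood on both sides of 0 (Eif3f at -0.030 ± 0.084). Of 9 members named as TOP mRNAs from general knowledge, 5 had positive means, and the median of the 9 was 0.014, beside 0.0039 for the other 53 members. The pool medians of the 9 were 0.039, -0.069 and 0.036, so their sign was not stable.

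Translation factors were bright on these arrays. The brightness A, the mean log2 intensity of both channels, had a median of 8.93 over the member genes, against 6.45 over all named genes. Of the 62 genes, 57 were above background in at least 1 channel on every array, against 9356 of 17865 named genes. By probes this held for 87.5% of the members and 44.9% of the array. When all probes were ranked by brightness and cut into 10 equal bins, 39 of the 62 genes lay in the brightest bin. Of these 39, 7 were above and 2 below 0 at an unadjusted p under 0.05, where 19.4% and 21.4% of all probes in that bin were. The share above 0 among members thus lay close to that of equally bright probes. The share below 0 was smaller, and that difference was not tested. The ratio and the brightness of the members had r = 0.22 and rho = 0.13 over 62 genes, a description across genes that share the same arrays. With the members ranked by brightness and cut into 3 parts, the medians from dim to bright were 5.4e-05, 0.0085 and 0.010, and with median centring -0.012, -0.0039 and -0.035.

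**Figure D2:**
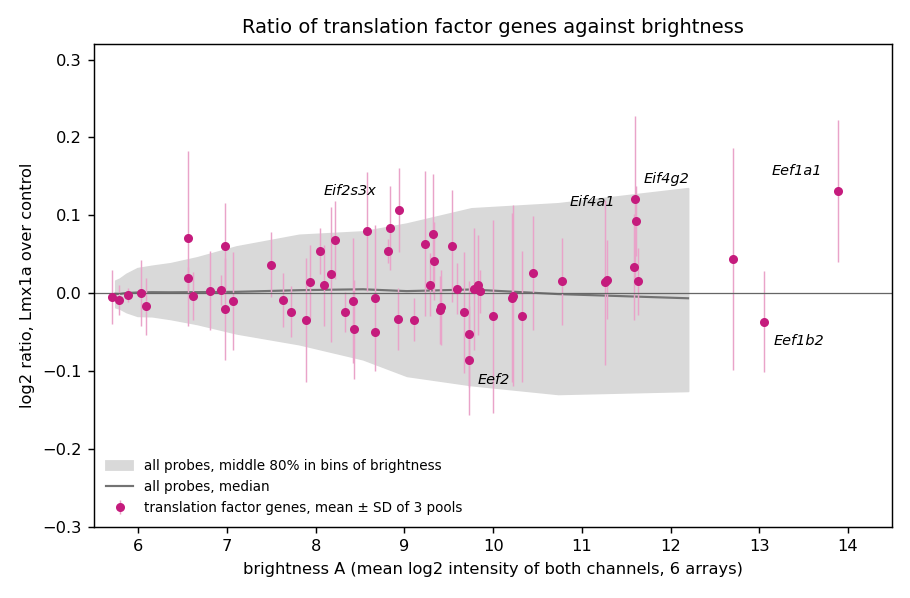
Mean log2 ratio of Lmx1a over control (± SD of 3 pools) of the translation factor genes against brightness, over the middle 80% of all probes in bins of brightness (grey) and their median (line). The band widens with brightness, and most members lie inside it. The means lie between -0.086 (Eef2) and 0.13 (Eef1a1).

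The ratios were next set against the dye that carried the Lmx1a RNA. In limma's fit of Cy5 over Cy3, 12 member probes of 11 genes were called at an adjusted p under 0.05 (15% of member probes, against 6.8% of all probes and 12.4% of detected probes). Of these, 8 were brighter in Cy3 (4.15% of all probes) and 4 in Cy5 (2.65%). In the brightest of the 10 bins, 10 of 39 member genes were called, where 23.7% of all probes were, so the members' share lay near that of equally bright probes. The count of 12 fell to 3 without replicate 2 and to 7 without replicate 3, and was 0 with plain background subtraction. Calls over the whole array also fell, from 2160 to 722, 503 and 1 in the same order. Eif3e, an eIF3 subunit, stood farthest out. Its ratios were -0.37, -0.37 and -0.43 where Lmx1a RNA carried Cy5. Where it carried Cy3 they were 0.30, 0.58 and 0.48. The same RNAs thus gave opposite signs on 6 of 6 arrays, while the pool means came to 0.034 ± 0.068. Eef1b2 did likewise, with -0.12, -0.34 and -0.23 against 0.20, 0.20 and 0.072. Over the members, 10 genes had opposite signs in the orientations on all 6 arrays, as did 15.8% of all probes.

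Each orientation taken alone gave calls, and of the members only Eif3e was called in both, with opposite signs. With Lmx1a in Cy5 only, limma called 6 member probes at an adjusted p under 0.05 (3.13% of all probes): Eef1a1 at 0.23, and Eif3e, Eef1b2, Eef2, Eif4g1 and Eef1akmt1 between -0.39 and -0.14. With Lmx1a in Cy3 only it called 2 (0.677% of all probes): Eif3e at 0.46 and Eif4g2 at 0.29. Apart from Eef1a1, at 0.031 with Lmx1a in Cy3, each of these genes had the other sign in the other orientation. The Cy5 and Cy3 orientation means of the 62 genes had r = -0.60, against -0.20 over all probes. By rank the contrast was smaller, with rho = -0.44 against -0.26. How equally bright probes compare in this respect was not tested. Arrays of different pools in the same orientation had r between 0.35 and 0.60, and the 2 arrays of a pool between -0.48 and -0.22. These are descriptions across genes that share arrays and the control RNA.

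**Figure D3:**
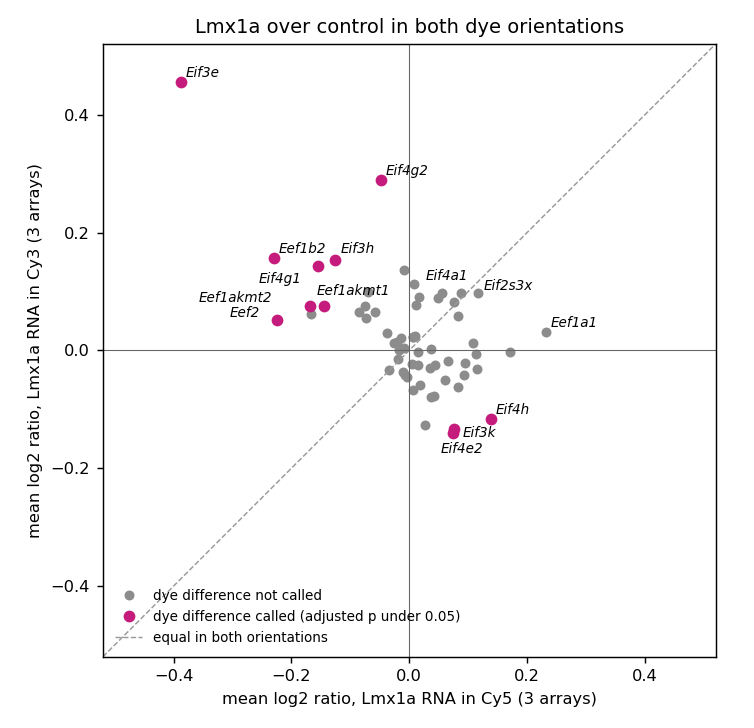
Mean log2 ratio of Lmx1a over control on the 3 arrays with Lmx1a RNA in Cy5 (x axis) and on the 3 with Lmx1a RNA in Cy3 (y axis), 1 point for each translation factor gene, in colour where the dye difference was called. Called genes such as Eif3e (-0.39 and 0.46) lie far from the dashed line of equal ratios, while Eif4a1 and Eif2s3x lie near it.

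The rest of the translation machinery gave the setting for these values. In 6 further lists of genes, 0 members were called in the fit of the pools. Other initiation factors had a median of 0.0052 over 15 genes, with Pabpc1, the poly(A)-binding protein, at 0.11 ± 0.051 and Cyfip1, a repressor that binds eIF4E, at 0.080 ± 0.023. Mcts1, a reinitiation factor named after its value was seen, lay the other way at -0.10 ± 0.069. Termination genes had a median of 0.034, and 3 of 9 lay above 0 at an unadjusted p under 0.05, against 12% of detected probes. The release factors Gspt1 (0.088 ± 0.073) and Etf1 (0.070 ± 0.059) were among them. Genes of mTOR and MNK signalling had a median of -0.020, with Tsc2, a brake on mTOR, at -0.053 ± 0.0075 and the kinase Rps6kb1 at 0.037 ± 0.027. In the list on eIF2 dephosphorylation and the stress response, the transcription factor Atf5 stood at -0.14 ± 0.099 and the phosphatase subunit Ppp1cc at 0.078 ± 0.054. Genes that modify eIF5A and eEF2 had a median of -0.0026 with 5 of 12 positive. Among those that make the diphthamide of eEF2, Dph2 and Dph6 were at 0.042 ± 0.0050 and 0.056 ± 0.051, while Dph1, Dph3, Dph5 and Dph7 lay between -0.018 and 0.0046. However, Dph7 was above background on 0 of 6 arrays and Dph1 on 5 of 6. Of the mitochondrial factors, Gfm1 was at 0.10 ± 0.073 and Mrrf at -0.066 ± 0.046. Orientation means had opposite signs for Tsc2 (-0.13 with Lmx1a in Cy5, 0.028 in Cy3), Gfm1 (-0.0060 and 0.21), Mcts1 (-0.24 and 0.036), Dph6, Etf1 and Rps6kb1.

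The genes for cytosolic ribosomal proteins, the partners of these factors, had a different median. It was 0.0045 for the 62 factor genes and -0.068 for 65 ribosomal protein genes, of which 6 were positive and 36 lay below 0 at an unadjusted p under 0.05 (10.8% of detected probes and 21.4% of the brightest of the 10 bins). With median centring their median was -0.15 with 1 positive, and with Lmx1a in Cy3 only 17 were positive. Pool medians of the ribosomal protein genes were -0.069, -0.099 and -0.056, and none was called in the fit of the pools, while 14 were called lower with the replicate block (1.05% of all probes in either direction). Their median brightness was 11.4, against 8.93 for the factor genes. What part brightness has in the difference between the lists was not tested.

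**Figure D4:**
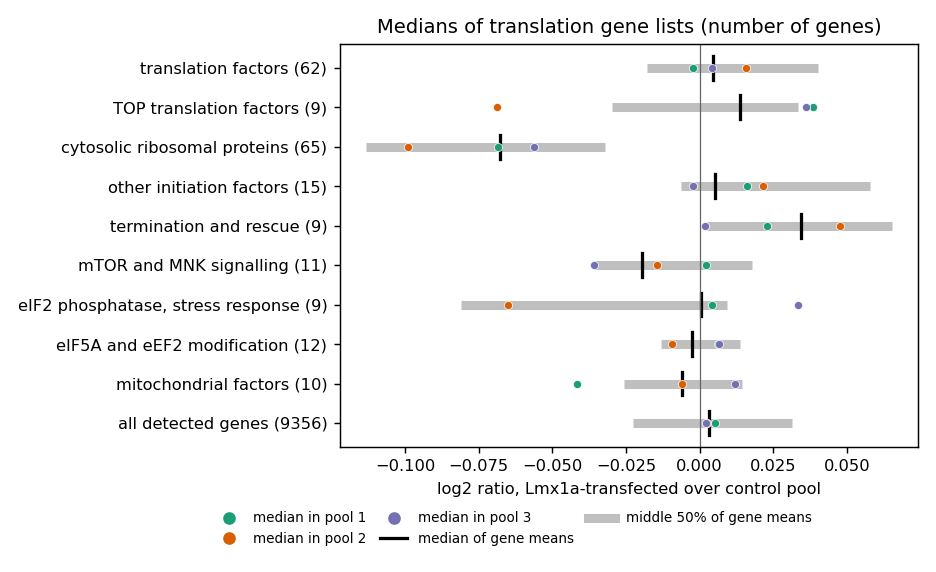
Median log2 ratio of Lmx1a over control for lists of translation genes (number of genes in brackets), with 1 point for each RNA pool, a black bar for the median of the gene means and a grey bar for their middle 50%. Translation factors lie at 0.0045 and cytosolic ribosomal proteins at -0.068.

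Signal depth and labels were checked on the same arrays. The Lmx1a probe itself was at 2.49 ± 0.68 and positive on 6 of 6 arrays, though its limma adjusted p of 0.0779 did not pass the threshold. Probes above background in the Lmx1a channel came to 49.2% on the array of replicate 1 with Lmx1a in Cy3 and to between 60.1% and 67.7% on the others. Member genes above background in that channel numbered 57 to 60 on every array. Of 11 dopaminergic markers 3 (Th, Ddc and Slc18a2) were above background in both channels on all arrays, and Slc6a3, Pitx3, Foxa2 and Aldh1a1 were so on none. Of markers of other cell types this held for 3 of 4 for oligodendrocytes, 1 of 4 for microglia, 1 of 5 for fibroblasts and 0 of 5 for astrocytes.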

How the data were processed

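RNA of 3 Lmx1a pools was compared with 1 control pool on 6 arrays. Per the file headers, the deposited scanner tables hold linear spot intensity, with background not subtracted. The authors also deposited log2 ratios per spot. Set against the scanner values (r 0.996 to 0.999 across spots), these followed loess within 48 print grids without background correction, already turned to Lmx1a over control. For scanner and software: not given in the sources used here.

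After normexp background correction (offset 50), loess within each array (span 0.3, control spots at weight 0) was applied, ratios were turned to Lmx1a over control and the 2 arrays of a pool averaged. limma 3.58.1 (lmFit, eBayes; R 4.3.3) tested the mean of the 3 pools, and likewise Cy5 over Cy3, with Benjamini-Hochberg adjustment over 31769 probes. The number of arrays limits the precision. Above background means a spot mean over the background median plus 2 background SDs. Detected genes passed this on each of the 6 arrays in 1 channel or both. The replicate block fit used the 6 arrays with the pool as block and dye as a term. Arrays with the same number share their RNA pool, per the titles in the labels. Its consensus correlation was 0.068. The fits were tested on simulated data.

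Gene names came from GEO's platform annotation, and old symbols were updated through RefSeq's table for GRCm38.p6. By this update 8 member probes got a current symbol, and 4 Argonaute probes with Eif2c symbols left the members. In all, 2 pseudogene probes were left out, 1 of them by its updated symbol. No probe had several genes, 26000 had 1 and 5769 none. Values were named for the 6 detected members with the lowest p on each side, the largest and the brightest of each role, 9 core factors, the 4 with the largest dye difference, genes whose probes disagree, and 2 genes of each further list. Other members, and the ribosomal protein genes, were chosen after their values were seen. Members and lists were chosen with earlier results of these data known. The alternatives are listed in the closing section.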

Additional observations from a re-analysis of the deposited data

Results flagged for a closer look

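In 11 translation factor genes the log2 ratio differed between the dye orientations by limma's test of the difference itself, Cy5 over Cy3, at an adjusted p under 0.05. Over the array 6.8% of all probes, 12.4% of detected probes and 23.7% of probes in the brightest of 10 equal bins of brightness were called, so the count itself is near that of equally bright probes. The values are the mean of Cy5 over Cy3, which is the mean with Lmx1a in Cy5 minus the mean with Lmx1a in Cy3, divided by 2. Brighter in Cy3 were Eif3e (-0.4216), Eef1b2 (-0.193), Eif4g2 (-0.1686), Eif4g1 (-0.1492), Eif3h (-0.1395), Eef2 (-0.1379), Eef1akmt2 (-0.1215) and Eef1akmt1 (-0.1099). Brighter in Cy5 were Eif4h on both of its probes (0.09843 and 0.1271), Eif4e2 on its brightest probe (0.1069) and Eif3k on its brightest probe (0.1047). Eif3e had a limma adjusted p of 0.0017 and the same sign in 3 of 3 pools. Groups of 3 arrays are too small for the test of single outlying samples.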

How the results depend on the processing

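The alternatives were the authors' values, median centring, loess within print grids, Aquantile scaling, plain background subtraction, no background correction, each dye orientation alone, a replicate block, a variance trend with robust prior, detected probes only, each replicate left out, and the replicate block without the dimmest array. Aquantile scaling, the replicate block on 6 arrays, the variance trend and the restriction to detected probes leave ratios unchanged by construction. Member probes called for Lmx1a over control came to 6 with Lmx1a in Cy5 only and 2 with Lmx1a in Cy3 only, and to 0 under the other settings, leave-one-out included (0 to 0). The replicate block gave 0 member calls and a lowest adjusted p of 0.0916, so it changed no member's call for Lmx1a over control. Over the array it gave 333 calls, among them 14 ribosomal protein genes, where the fit of the pools gave 0, and 91 without the dimmest array. Member genes at an unadjusted p under 0.05 numbered 2 above and 2 below 0 with median centring and 0 above and 1 below with plain subtraction, where 9 and 2 are reported. They numbered 13 and 9 with Lmx1a in Cy5 only and 12 and 6 with Lmx1a in Cy3 only. The median ratio of the member genes was 0.01401 with Lmx1a in Cy3 only and -0.01802 with median centring, where the median of all probes was -0.0186, and -0.0004767 to 0.008933 with a replicate left out. Genes with a positive ratio numbered 22 with median centring and 31 to 37 with a replicate left out. Member probes called for dye numbered 75 with median centring, which leaves the dye curve in place and called 24782 of all 31769 probes. They numbered 0 with plain subtraction (1 of all probes) and 8 with the replicate block (2610 of all probes). With a replicate left out they numbered 3 to 9 (503 to 1514 of all probes). These counts thus moved with those of the whole array. Of 463 recomputed values of 31 named genes, 48 moved by more than the SD between pools, 16 of them in each single orientation and 8 with median centring. The 463 include the settings that leave ratios unchanged and those with a replicate left out. In the latter a mean of 3 pools cannot shift by more than their SD. The share of 48 in 463 is thus no measure of stability. Where no cause is named, the cause was not tested. Dim probes such as Eif5a2 and Eif4e1b carry no usable ratio, and 3 pools against 1 control pool limit the rest.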
